A study of Saccharomyces cerevisiae with 8 samples.

Results

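The cytosolic ribosomal protein genes of Saccharomyces cerevisiae were followed in 4 strains by mRNA sequencing. Members were the rows of the count table whose symbol begins with RPL or RPS and a number, for the large or the small ribosomal subunit. There were 129 such genes of 6337 in the table, 74 of the large and 55 of the small subunit. The genome annotation holds 132 genes of this pattern, and RPL7A, RPL7B and RPS22B were not analysed here. Of the 129, 110 formed 55 pairs of an A and a B copy, 18 were single-copy genes, and RPS22A was present without its partner. Mitochondrial ribosomal proteins carry other symbols and are not included.

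The study asked what happens to translation and mRNA levels when modified tRNA, quality control of stalled ribosomes (ribosome-associated quality control, RQC) or both are missing, and the mRNA count table analysed here holds 2 libraries per strain. The triple mutant ncs2∆elp6∆hel2∆ carried ncs2Δ::HIS3MX, elp6Δ::URA3 and hel2Δ::LEU2, the double mutant ncs2∆elp6∆ carried ncs2Δ::HIS3MX and elp6Δ::URA3, and hel2∆ carried hel2Δ::LEU2. All 4 strains, the wild type included, were MATa BY4741 cells with his3Δ1, leu2Δ0 and ura3Δ0, and the label of the wild type alone also gave met15Δ0. Cells grew in the rich medium YPD to mid-exponential phase. Ncs2 is needed for thiolation and Elp6 for the side chain of the wobble uridine U34 in tRNAs that read AAA, CAA and GAA codons, and Hel2 is the ubiquitin ligase that marks the small subunit of collided ribosomes to start RQC.

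Ribosomal protein genes make up a large part of the mRNA of a growing yeast cell. Most of them are switched on together by Rap1, Fhl1 and Ifh1 and repressed together under stress or starvation. Many are present as a pair of nearly identical copies left by an ancient genome duplication, and most members hold an intron in the coding sequence. A few members control their own mRNA, because the protein that is made in excess binds its own transcript and blocks splicing or speeds decay. The mRNAs of RPS14B, RPL30, RPL22B and RPS28B are textbook cases.

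Library totals ranged from 13252947 to 23941037 counts. HEL2 had 0 to 1 counts in the libraries of strains without it, against 1246 to 1918 in those with it, NCS2 0 to 11 against 582 to 945, and ELP6 0 to 10 against 904 to 1437. MET17, also named MET15, had 4321 to 6651 counts in triple-mutant and double-mutant libraries, against 0 to 6 in hel2∆ and wild-type libraries, although the label of hel2∆ does not list met15Δ0. Loss of U34 modification and presence of MET17 transcripts therefore cannot be told apart in any comparison below that spans this divide. The study calls its mRNA samples of the double and triple mutant biological replicates, and the labels do not name separate cultures, so p-values measure the spread between these 2 samples per strain. For its own mRNA comparison of these strains, the paper names more double-mutant replicates than the 2 libraries analysed here.

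The copies of a pair can be told apart only where their coding sequences differ. Among members, 51 had a coding sequence in which every window of 50 nt was unique in the annotated coding sequences, 77 were unique over at least 90% of windows, and 14 were unique over less than 50%, down to 19.0%. How reads that match more than one gene were treated is not given in the sources used here. Among the 8 annotated coding sequences of the yeast genome without any unique window, 7 had at most 83 counts summed over all libraries. Counts of RPL1A and RPL1B, RPL35A and RPL35B, RPS8A and RPS8B, RPL4A and RPL4B, RPS6A and RPS6B, RPL11A and RPL11B, and RPL41A and RPL41B, each unique over less than 50%, are uncertain for this reason. To show how the 4 pairs on which the results turn are told apart, the coding stretch of 30 nt with the most differences within each pair is printed 5′ to 3′ from RefSeq assembly R64, the same build as sacCer3, which the submitters' processing notes name. Capitals mark the bases that differ between the copies.
RPS14A (YCR031C), chrIII:177830-177859, minus strand, coding exon: atTtacgcTtcTttCaacgatacTttCgtT
RPS14B (YJL191W), chrX:74252-74281, plus strand, coding exon: atCtacgcCtcCttTaacgatacCttTgtA
RPS9A (YPL081W), chrXVI:405679-405708, plus strand, coding exon: atTagGagaCtAgttagagtCggtgtTttA
RPS9B (YBR189W), chrII:605149-605178, plus strand, coding exon: atCagAagaTtGgttagagtTggtgtCttG
RPL8A (YHL033C), chrVIII:35603-35632, minus strand, coding sequence: gtCaagtacggtttgaaccaCgttgtTGcC
RPL8B (YLL045C), chrXII:48207-48236, minus strand, coding sequence: gtTaagtacggtttgaaccaTgttgtCTcT
RPL22A (YLR061W), chrXII:263718-263747, plus strand, coding exon: gcTgtCggTaacttGggTaacgcTGtCACT
RPL22B (YFL034C-A), chrVI:64447-64476, minus strand, coding exon: gcCgtAggAaacttAggGaacgcCAtTGAG
These stretches held 7 differences each in the RPS14 and RPS9 pairs, 5 in the RPL8 pair and 11 in the RPL22 pair. Over the whole coding sequence the copies were 92.1% (RPS14), 90.9% (RPS9), 95.1% (RPL8) and 78.9% (RPL22) identical, and their proteins differed at 3, 5, 7 and 19 residues. Unique windows made up 88.2% of RPS14A and 88.3% of RPS14B, 95% of RPS9A and of RPS9B, 93.1% of RPL8A and of RPL8B, and 100% of RPL22A and of RPL22B. The RPS14, RPS9 and RPL22 copies each have 1 intron within the coding sequence, and the RPL8 copies have none.

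As a group, ribosomal protein mRNAs took the smallest share of the transcriptome in the double mutant. They accounted for 26.5% and 25.3% of counts in triple-mutant libraries, 23.7% and 23.5% in double-mutant libraries, 30.1% and 27.6% in hel2∆ libraries, and 27.9% and 26.6% in wild-type libraries. The double-mutant libraries lay below all others, and the hel2∆ and wild-type libraries overlapped. The share differed by -3.61 percentage points between the double mutant and wild type (exact two-sided permutation p = 0.333) and by -2.98 points between the triple mutant and hel2∆ (exact permutation p = 0.333). It was 2.25 points higher in the triple mutant than in the double mutant (exact permutation p = 0.333) and 1.62 points higher in hel2∆ than in wild type (exact permutation p = 0.667). With 2 libraries per strain, 0.333 is the smallest p this test can give. The difference between hel2∆ and wild type was 0.33 points without hel2∆ replicate 1 and 2.91 points without hel2∆ replicate 2, and that between the triple mutant and hel2∆ was -1.69 and -4.27 points without the same libraries. Both subunits followed the same order, with the large subunit at 13.8% and 13.2%, 12.4% and 12.3%, 15.8% and 14.4%, and 14.6% and 14.0% of counts in the same 4 strains.

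**Figure D1:**
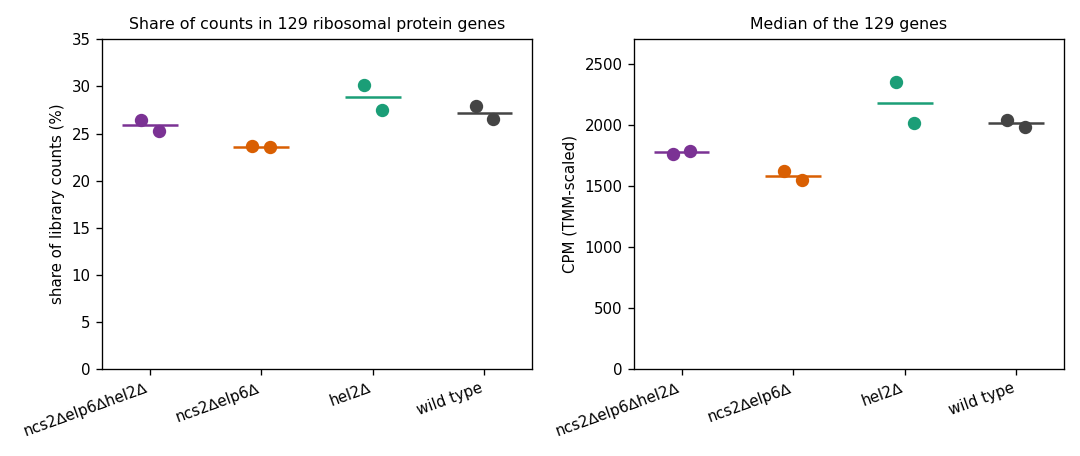
Share of each library's counts in the 129 ribosomal protein genes (left, %) and the median of their CPM (right, TMM-scaled) for the 2 libraries of each strain, with points for libraries and bars for means. Both ncs2∆elp6∆ libraries, at 23.7% and 23.5%, lie below the other 6.

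The genes were tested one by one in an edgeR quasi-likelihood fit of all 8 libraries, adjusted by Benjamini-Hochberg over 6087 genes, and a gene with an adjusted p under 0.05 is said to be called. All 129 members passed the filter on low counts. Levels are in CPM, counts per 1000000 reads after TMM scaling of library totals. In the double mutant against wild type, 60 of 129 members were called, which is 46.5%, against 27.9% of all genes tested. Of these 59 were lower, which is 45.7% of members against 13.0% of all genes, and RPS14B alone was higher. The median log2 fold change was -0.32 over members and 0.03 over all genes, and 126 of 129 values were below 0. When libraries were scaled by their totals alone, the median of all genes moved to 0.14, that of members to -0.21, and 31 members were called, which is 24.0% against 31.9% of all genes (23.3% lower against 8.53%). The count also depended on single libraries. It was 15 without wild type replicate 1 (11.6% of members against 17.1% of all genes) and 32 without wild type replicate 2 (24.8% against 20.2%). It was 35 without double-mutant replicate 1 (27.1% against 14.9%) and 10 without double-mutant replicate 2 (7.75% against 12.9%), where 6.98% of members and 6.71% of all genes were lower. The excess of members called in either direction was thus lost with library totals and without wild type replicate 1 or double-mutant replicate 2. The excess called lower remained with library totals and was small without either of these libraries.

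The lowering was spread over the classes of ribosomal protein genes. It was called in 34 of 74 large-subunit genes, with a median of -0.33, and in 25 of 55 small-subunit genes, with a median of -0.30. Among the A copies 25 of 56 were lower, among the B copies 24 of 55, and among the single-copy genes 10 of 18. Genes with an intron in the coding sequence and genes without one were lower in 39 of 85 and 20 of 44 cases. Of the 77 members with at least 90% unique windows, 37 were lower and none was higher, with a median of -0.33. These shares were not tested against each other.

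The same comparison in the absence of HEL2, the triple mutant against hel2∆, called 49 of 129 members, which is 38.0% against 28.8% of all genes. Of these, 48 were lower, or 37.2% of members against 13.8% of all genes, and RPS14B was again the one gene that was higher. The median log2 fold change was -0.27, against 0.00 over all genes, and 123 of 129 values were below 0. Called members numbered 25 with scaling by library totals (19.4% against 31.4% of all genes, and 17.8% lower against 8.56%), which moved the median of all genes to 0.11 and that of members to -0.16. There were 19 without hel2∆ replicate 1 (14.7% against 23.2%), 16 without triple-mutant replicate 1 (12.4% against 14.8%) and 29 without triple-mutant replicate 2 (22.5% against 20.2%). The excess of members called in either direction was thus lost under the first 3 of these alternatives. It was also lost in a fit of only the strains compared (20.9% against 25.1%, and 20.2% lower against 12.0%). The share called lower was 14.0% of members against 11.6% of all genes without hel2∆ replicate 1, and 11.6% against 6.63% without triple-mutant replicate 1. The libraries of this comparison and of the double mutant against wild type are separate, but both come from the same fit with a shared estimate of spread. In both, 38 members were called, all in the same direction, which is 63.3% of the 60 and 77.6% of the 49. The overlap over all genes was not computed here, so these shares are a description.

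Deletion of HEL2 in the double mutant gave values above 0 for most members, of which few were called. In the triple mutant against the double mutant, 118 of 129 log2 fold changes were above 0, with a median of 0.21 over members and 0.01 over all genes. RPS9A, RPL22B and RPL9B were called, all higher, which is 2.33% of members against 6.93% of all genes, 2.81% called higher and 4.12% called lower. In DESeq2 the number called was 40, of which 39 were higher, or 31.0% of members against 10.9% of all genes, so that the order of the shares turned. It was 0 without double-mutant replicate 1, without double-mutant replicate 2 or without triple-mutant replicate 1. It rose with any other library left out. Over all genes the share called also fell in the fits with 0 members. The order of the shares turned without triple-mutant replicate 2.

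In hel2∆ against wild type no member was called by edgeR, against 0.657% of all genes (0.312% higher and 0.345% lower). None was called by DESeq2, against 1.03% of all genes. In edgeR, 18 members had an unadjusted p under 0.05. The median log2 fold change was 0.13 over members and -0.0041 over all genes, and 122 of 129 values were above 0. The hel2∆ libraries differed from each other, so that the median was 0.054 without hel2∆ replicate 1 and 0.21 without hel2∆ replicate 2. The interaction compares the effect of deleting HEL2 between both backgrounds, as the value for the double mutant less the value for wild type. It was called for no member by edgeR, against 1.13% of all genes (0.969% higher and 0.164% lower), and for none by DESeq2, against 2.51%. The edgeR interaction had an unadjusted p under 0.05 for 2 members. Its median over members was 0.06, and -0.013 without hel2∆ replicate 2.

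**Figure D2:**
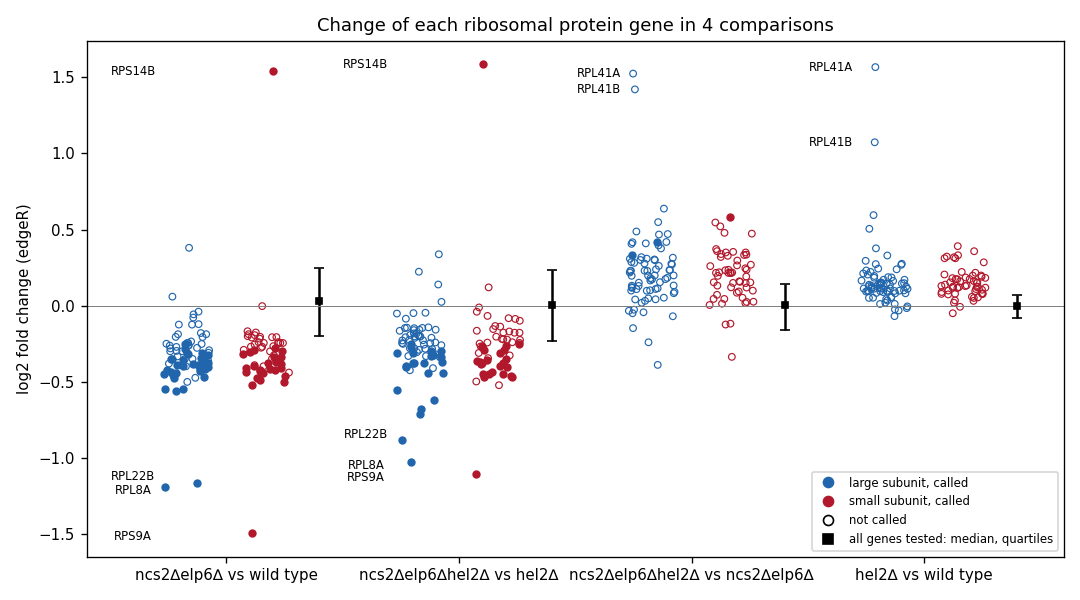
Log2 fold change (edgeR) of each of the 129 ribosomal protein genes in 4 comparisons, with large-subunit genes in blue and small-subunit genes in red, filled where the adjusted p was under 0.05, and the median and quartiles of all 6087 genes as a black square with bars. Members lie below 0 in both comparisons of U34 modification apart from RPS14B at 1.54 and 1.59 and a few genes that were not called, and RPS9A, RPL8A and RPL22B lie furthest below.

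RPS14B was the one ribosomal protein mRNA called higher without U34 modification. Rps14 sits on the platform of the small subunit, and excess Rps14 is known to repress RPS14B through a structure in its pre-mRNA. RPS14B had 1020 and 1080 CPM in triple-mutant libraries, 983 and 948 in double-mutant libraries, 376 and 323 in hel2∆ libraries, and 353 and 311 in wild-type libraries. The 4 libraries without U34 modification were all above the 4 with it. The log2 fold change was 1.54 ± 0.10 (SE; edgeR adjusted p = 8.77e-06) in the double mutant against wild type and 1.59 ± 0.10 (adjusted p = 4.67e-06) in the triple mutant against hel2∆. The other copy, RPS14A, had 2619 and 2797 CPM in triple-mutant libraries, 2740 and 2483 in double-mutant libraries, 3712 and 3682 in hel2∆ libraries, and 3184 and 3422 in wild-type libraries. RPS14A was lower in the same comparisons, at -0.34 ± 0.09 (adjusted p = 0.0252) and -0.45 ± 0.09 (adjusted p = 0.00716). The B copy thus held 27.0% ± 0.86 of the summed CPM of the pair in the double mutant and 9.15% ± 1.16 in wild type (SD, n = 2), while the sum was 3577 ± 207 CPM in the double mutant and 3635 ± 139 CPM in wild type. The sum differed by less than the spread between replicates there. In the triple mutant it was 3639 and 3877 CPM, against 4088 and 4005 CPM in hel2∆, which do not overlap.

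RPS9A showed the largest fall. Rps9 is a small-subunit protein near the mRNA entry channel that bears on decoding accuracy. RPS9A had 175 and 177 CPM in triple-mutant libraries, 112 and 123 in double-mutant libraries, 418 and 340 in hel2∆ libraries, and 355 and 306 in wild-type libraries. The triple mutant lay between the double mutant and the strains with U34 modification, with no overlap between libraries. The log2 fold change was -1.49 ± 0.11 (edgeR adjusted p = 2.68e-05) in the double mutant against wild type, -1.11 ± 0.11 (adjusted p = 0.000111) in the triple mutant against hel2∆, and 0.58 ± 0.11 (adjusted p = 0.0204) in the triple mutant against the double mutant. RPS9A is the minor copy, and RPS9B held 96.7% ± 0.05 of the pair in the double mutant and 93.0% ± 0.29 in wild type (SD, n = 2). RPS9B itself was at 3380 and 3620 CPM in double-mutant libraries, against 4842 and 3925 in wild-type libraries, and was not called (adjusted p = 0.124).

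RPL8A, for a large-subunit protein needed early in subunit assembly, had 693 and 643 CPM in triple-mutant libraries, 571 and 544 in double-mutant libraries, 1418 and 1303 in hel2∆ libraries, and 1307 and 1237 in wild-type libraries. Libraries without U34 modification held at most 693 CPM and the others at least 1237 CPM. The log2 fold change was -1.19 ± 0.08 (edgeR adjusted p = 1.74e-05) in the double mutant against wild type and -1.03 ± 0.08 (adjusted p = 3.13e-05) in the triple mutant against hel2∆. RPL8B was at 880 and 735 CPM in double-mutant libraries, against 949 and 1012 in wild-type libraries, and was not called (adjusted p = 0.0667). RPL8B was the higher copy in the double mutant, with 59.1% ± 2.27 of the pair, and the lower copy in wild type, with 43.5% ± 2.08 (SD, n = 2). The sum of the pair was 1365 ± 122 CPM in the double mutant and 2252 ± 4.5 CPM in wild type, a log2 difference of -0.72 that is larger than the spread between replicates and was given no test of its own.

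RPL22B, the minor of the copies for the large-subunit protein Rpl22, had 109 and 112 CPM in triple-mutant libraries, 78.6 and 87.2 in double-mutant libraries, 221 and 188 in hel2∆ libraries, and 194 and 178 in wild-type libraries. As with RPS9A, the triple mutant was intermediate. Rpl22 is known to bind the RPL22B pre-mRNA and hold back its splicing. The log2 fold change was -1.16 ± 0.10 (edgeR adjusted p = 4.99e-05) in the double mutant against wild type, -0.88 ± 0.10 (adjusted p = 0.000202) in the triple mutant against hel2∆, and 0.42 ± 0.10 (adjusted p = 0.0380) in the triple mutant against the double mutant. RPL22A varied between replicates, at 938 and 967, 1350 and 899, 1294 and 1817, and 1358 and 1822 CPM in the same order of strains. It was called in the triple mutant against hel2∆ (-0.71 ± 0.21, adjusted p = 0.0352) and not in the double mutant against wild type (-0.50 ± 0.21, adjusted p = 0.111). The call was lost in DESeq2 and without any 1 of hel2∆ replicate 2, triple-mutant replicate 1 or triple-mutant replicate 2, with adjusted p up to 0.198 over 16 alternatives.

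**Figure D3:**
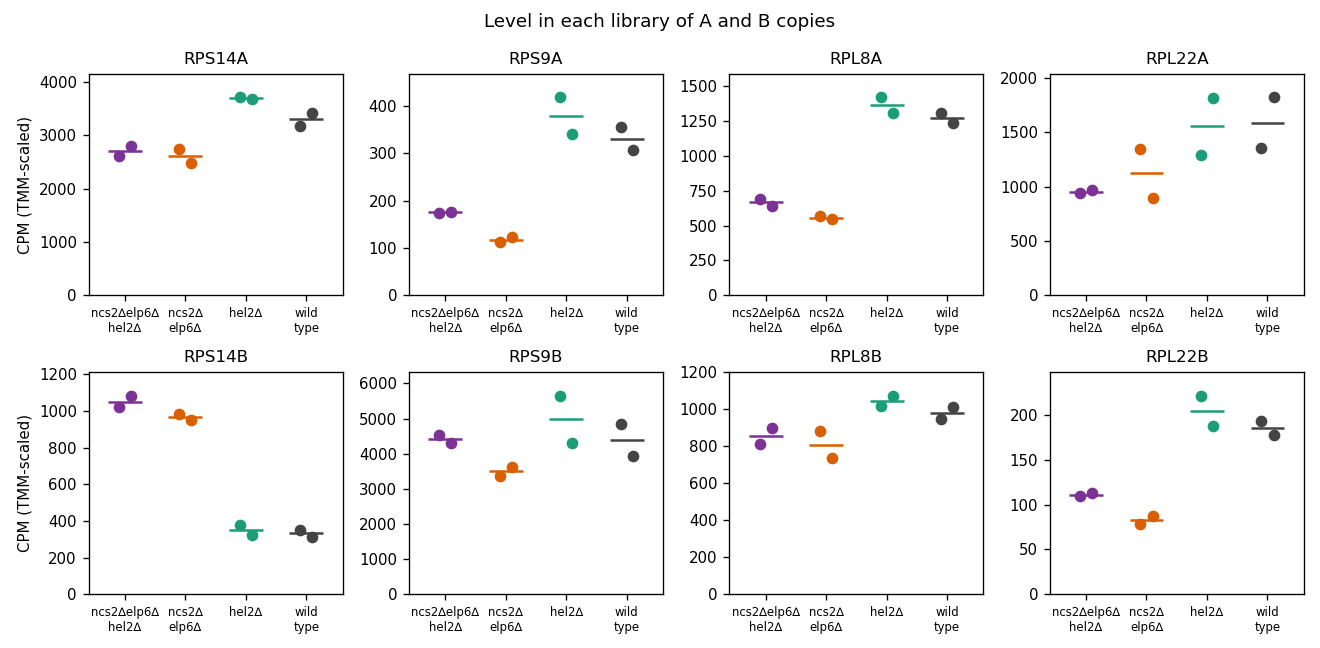
Level in CPM (TMM-scaled) of the A copy (top row) and the B copy (bottom row) of RPS14, RPS9, RPL8 and RPL22 in each library, with points for libraries and bars for the mean of the 2 libraries of a strain. RPS14B is near 1000 CPM without U34 modification, against at most 376 with it, and RPS9A, RPL8A and RPL22B move the other way.

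The remaining genes singled out by size of change moved less. RPL9B, the minor copy of a large-subunit protein at the stalk base, had 548 and 504 CPM in triple-mutant libraries, 417 and 419 in double-mutant libraries, 703 and 662 in hel2∆ libraries, and 606 and 626 in wild-type libraries. It was lower in the double mutant than in wild type (log2 fold change -0.56 ± 0.08, edgeR adjusted p = 0.000706) and higher in the triple mutant than in the double mutant (0.33 ± 0.07, adjusted p = 0.0345). RPL36B, a large-subunit gene, had 1828 and 1784 CPM in double-mutant libraries, against 2840 and 2424 in wild-type libraries (-0.54 ± 0.14, adjusted p = 0.0171). That call was lost without wild type replicate 1, without double-mutant replicate 1 and without double-mutant replicate 2, with adjusted p up to 0.0968 over 16 alternatives. RPL16A, 1 of the copies for a large-subunit protein, had 1118 and 1223 CPM in triple-mutant libraries, 1498 and 1566 in double-mutant libraries, 1718 and 2024 in hel2∆ libraries, and 1645 and 1885 in wild-type libraries. Its log2 fold change was -0.68 ± 0.11 (adjusted p = 0.00169) in the triple mutant against hel2∆, and it was at -0.39 ± 0.11 (adjusted p = 0.0626) in the triple mutant against the double mutant.

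The calls for RPS9A, RPL22B and RPL9B in the triple mutant against the double mutant were lost when either library of either strain was left out, and that for RPL22B also with scaling by library totals. Over 16 alternatives, the adjusted p reached 0.119 for RPS9A, 0.169 for RPL22B and 0.210 for RPL9B. By contrast, RPS14B, RPS9A, RPL8A and RPL22B remained called under all 16 alternatives in both comparisons of U34 modification.

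Balance between A and B copies was examined directly, as the log2 ratio of their counts in each library, tested with limma over 427 paralog pairs of the genome. In the double mutant against wild type, 10 of 55 ribosomal pairs were called, which is 18.2%, against 35.4% of all pairs. The largest changes in log2 A/B ratio were -1.88 ± 0.10 for RPS14A/RPS14B (limma adjusted p = 5.36e-07), -1.17 ± 0.07 for RPS9A/RPS9B (adjusted p = 1.14e-06) and -0.90 ± 0.11 for RPL8A/RPL8B (adjusted p = 0.000136). For RPS14 the ratio was 1.48 and 1.39 in double-mutant libraries, against 3.17 and 3.46 in wild-type libraries. For RPS9 it was -4.91 and -4.88 against -3.77 and -3.68, and for RPL8 -0.63 and -0.43 against 0.46 and 0.29, in the same strains. Called pairs with smaller changes included RPL15, RPL27, RPL42, RPL9 and RPS30, and the median absolute change over all 55 pairs was 0.10, against 0.29 over the other 372 pairs of the genome. Fewer ribosomal pairs were called without wild type replicate 1 and without double-mutant replicate 1. The shares of all pairs called in those fits are not given here, so these falls cannot be told from fewer calls over all pairs.

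For the triple mutant against hel2∆ the ratio was called in 9 of 55 pairs, which is 16.4% against 41.5% of all pairs, and the same 3 pairs led. The change was -2.04 ± 0.10 for RPS14 (limma adjusted p = 2.02e-07), -0.94 ± 0.07 for RPS9 (adjusted p = 3.66e-06) and -0.73 ± 0.11 for RPL8 (adjusted p = 0.000475). Fewer ribosomal pairs were called without hel2∆ replicate 2 and without triple-mutant replicate 1, where the share of all pairs is not given here either. No ribosomal pair was called by limma in hel2∆ against wild type, against 5.39% of all pairs, and none had an unadjusted p under 0.05. None was called by limma in the interaction either, against 9.60% of all pairs, where 3 had an unadjusted p under 0.05. In the interaction 1 pair was called without hel2∆ replicate 1.

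Between the triple and the double mutant, 4 of 55 pairs were called, 7.27% against 14.1% of all pairs. RPL16A/RPL16B changed by -0.63 ± 0.13 (limma adjusted p = 0.0103), with ratios of -1.12 and -0.94 in triple-mutant libraries, against -0.46 and -0.36 in double-mutant libraries. RPS28A/RPS28B changed by 0.38 ± 0.11 (adjusted p = 0.0425), and RPL33A/RPL33B by 0.35 ± 0.10 (adjusted p = 0.0425). The fourth pair was RPS9A/RPS9B, at 0.25 ± 0.07 (adjusted p = 0.0485). Fewer ribosomal pairs were called when either double-mutant library, triple-mutant replicate 1 or either wild-type library was left out. The number called was 0 when the variance was not allowed to follow the mean. The shares of all pairs called in these fits are not given here.

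**Figure D4:**
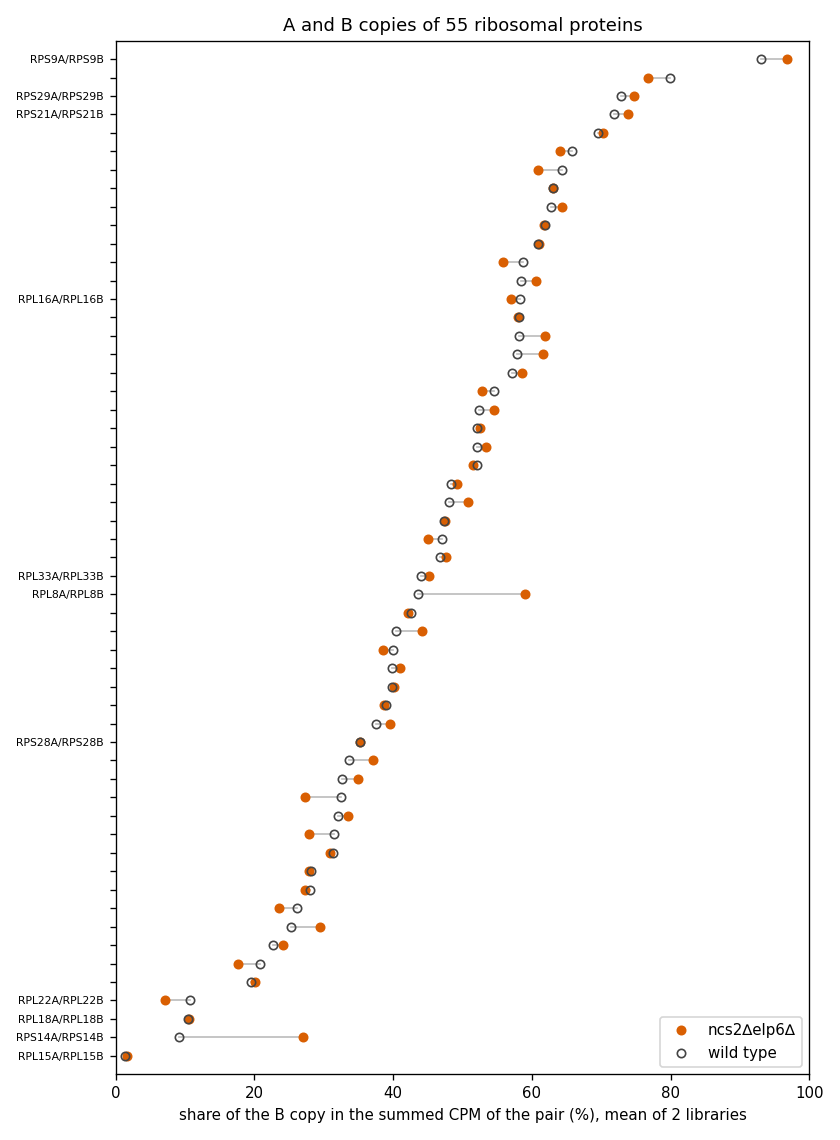
Share of the B copy in the summed CPM of each of the 55 A and B pairs (%), as the mean of 2 libraries, in ncs2∆elp6∆ (filled) and wild type (open), ordered by the wild-type share and named for 11 pairs of the text. Most pairs lie close together in both strains, while the B share of RPS14 is 27.0% in ncs2∆elp6∆ and 9.15% in wild type and that of RPL8 is 59.1% and 43.5%.

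Many pairs were unequal before any mutation. In wild type the A copy exceeded the B copy in 32 of 55 pairs. Among pairs with at least 50% unique windows, the A copy led most in RPL15 (log2 ratio 6.18 and 6.13 in the 2 libraries), RPS14 (3.17 and 3.46) and RPL18 (3.21 and 3.01). The B copy led most in RPS9 (-3.77 and -3.68), RPS29 (-1.71 and -1.16) and RPS21 (-1.25 and -1.46). The RPS29 and RPS21 values overlap, and those of RPS14 and RPL18 overlap as well.

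Levels between genes were compared as CPM per kb, with the number of unique windows of a coding sequence taken as its length. This number is below the coding length even where every window is unique, and the gap is relatively largest in short genes. The scale therefore raises the shortest genes, RPL39 among them, and levels per kb of full coding length were not compared. The highest wild-type levels were 25587 ± 2613 for RPL39, a very short protein that lines the exit tunnel, 19095 ± 4008 for RPL35A, which is unique over only 19.4% of windows, and 18966 ± 2826 for RPL38 (SD, n = 2). RPL35A and RPL38 differed by less than their spread. The lowest were 154 ± 2.0 for RPL15B, 580 ± 35.6 for RPL22B and 638 ± 66.5 for RPS9A, of which RPL22B and RPS9A differed by less than their spread. The median member stood at 6064. In the double mutant, RPL22B was at 259 ± 19.1 and RPS9A at 227 ± 14.9 on this scale. RPL15B, the lowest copy, was at 82.6 and 77.6 CPM in double-mutant libraries, against 76.1 and 77.5 in wild-type libraries, a log2 fold change of 0.06 ± 0.08 (adjusted p = 0.634).

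Members that are ubiquitinated by Hel2 on collided ribosomes, or that are made as fusions to ubiquitin, were looked at by name. RPS20, the main Hel2 substrate, had 5052 and 4853 CPM in triple-mutant libraries, 4284 and 4244 in double-mutant libraries, 5572 and 4909 in hel2∆ libraries, and 4935 and 4640 in wild-type libraries. RPS3, a second substrate, had 4583 and 4120, 3297 and 3513, 4958 and 4156, and 4063 and 3779 CPM in the same order. Neither was called in any comparison, with the smallest edgeR adjusted p being 0.0911 for RPS3 at 0.35 ± 0.11 in the triple mutant against the double mutant, where DESeq2 called it. RPL40A, RPL40B and RPS31, which encode ubiquitin joined to a ribosomal protein, were all lower in the double mutant than in wild type. The log2 fold changes were -0.46 ± 0.15 (adjusted p = 0.0494), -0.44 ± 0.13 (adjusted p = 0.0334) and -0.38 ± 0.11 (adjusted p = 0.0275). None of the 3 was called by edgeR in another comparison, while DESeq2 called RPS31 lower in the triple mutant than in hel2∆ and higher than in the double mutant, and RPL40B lower in the triple mutant than in hel2∆. The calls in the double mutant against wild type were lost in 4 to 6 of 16 alternatives, with adjusted p up to 0.259.

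Of the other genes known for control of their own mRNA, RPL30 had 1450 and 1421 CPM in double-mutant libraries, against 1767 and 1801 in wild-type libraries, a log2 fold change of -0.31 ± 0.08 (edgeR adjusted p = 0.0193). RPS28B had 1175 and 1190 CPM in double-mutant libraries, against 1343 and 1390 in wild-type libraries, a log2 fold change of -0.21 ± 0.08 (adjusted p = 0.0667). Against hel2∆, triple-mutant values were -0.24 ± 0.08 for RPL30 (adjusted p = 0.0518) and -0.26 ± 0.08 for RPS28B (adjusted p = 0.0281). RPL30 stood close to the median of all members in both comparisons, and RPS28B did so in the triple mutant against hel2∆. In the double mutant against wild type RPS28B fell less than the median of -0.32 and lay above the upper quartile of -0.24. RPS14B and RPL22B lay far from the median in both. The calls for RPL30 and RPS28B were lost when any 1 library of the strains compared was left out, with adjusted p up to 0.0919 and 0.121 over 16 alternatives.

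The ribosomal proteins outside the name pattern are those of the acidic stalk, which recruits translation factors to the large subunit. RPP2A was lower in the double mutant than in wild type (-0.41 ± 0.09, edgeR adjusted p = 0.00969), with 1670 and 1560 CPM in double-mutant libraries, against 2074 and 2229 in wild-type libraries. The remaining 4 of 5 were not called there by edgeR, at -0.17 for RPP0, -0.30 for RPP1A, -0.31 for RPP1B and -0.25 for RPP2B, while DESeq2 called RPP1A and RPP1B. In the triple mutant against hel2∆, 4 of 5 were lower, against 13.8% of all genes, at -0.35 for RPP1A, -0.47 for RPP1B, -0.38 for RPP2A and -0.41 for RPP2B, and RPP0 was not called at -0.30. The calls for RPP1A, RPP1B and RPP2B were lost in 5 to 7 of 16 alternatives, with edgeR adjusted p up to 0.242. No stalk gene was called in the other comparisons. ASC1 was not analysed here.

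Among regulators of the ribosomal protein genes and chaperones that escort single ribosomal proteins, most calls were toward higher levels. Of all genes, 14.9% were higher and 13.0% lower in the double mutant than in wild type, and 15.1% and 13.8% in the triple mutant than in hel2∆. Of 10 regulators, IFH1, the coactivator, was higher in the double mutant than in wild type (0.51 ± 0.16, edgeR adjusted p = 0.0390) and DOT6, a repressor of ribosome biogenesis genes, was lower (-0.24 ± 0.07, adjusted p = 0.0366). In the triple mutant against hel2∆ IFH1 (0.60, adjusted p = 0.0195) and STB3 (0.37, adjusted p = 0.0455), a repressor, were higher and none was lower. RAP1, FHL1, SFP1, CRF1, HMO1, SCH9 and TOD6 were called in no comparison. Of 8 chaperones tested, 4 were higher and none lower in the double mutant than in wild type, namely BCP1, the partner of Rpl23 (0.66, adjusted p = 0.00322), SYO1, which carries Rpl5 and Rpl11 (0.43, adjusted p = 0.0118), NAP1 (0.41, adjusted p = 0.00840) and SQT1, the partner of Rpl10 (0.34, adjusted p = 0.00528). Compared with hel2∆, in the triple mutant BCP1 (0.61), NAP1 (0.40), SQT1 (0.41) and YAR1, the partner of Rps3 (0.68), were higher. SYO1 was lower in the triple mutant than in the double mutant (-0.60, adjusted p = 0.0115), and no regulator was called there or in hel2∆ against wild type. The calls for single regulators and chaperones were not checked under the alternatives. ACL4 was not analysed here.

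The study divided genes into RQC targets and RQC-refractory transcripts (RRTs) from experiments on the same strains, so these lists are not independent of the present samples. The list of RQC targets holds 10 members, and 8 of the 10 were lower in the double mutant than in wild type, against 45.7% of all members and 13.0% of all genes, with values from -0.50 to -0.24 and a median of -0.43, against -0.32 over all members. Of the 10 members among the RRTs, 5 were lower, with values from -0.44 to -0.17 and a median of -0.30. In the triple mutant against the double mutant the medians were 0.12 for RQC targets and 0.16 for RRTs, and none of the 20 was called by edgeR. Against hel2∆, 5 of 10 RQC targets and 3 of 10 RRTs were lower in the triple mutant, as were 13.8% of all genes.

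The coding sequences of members differ from those of other genes in the codons read by U34-modified tRNAs. Pooled over the 129 members, AAA made up 16.2% of lysine codons, against 58.5% in the 5517 other annotated genes tested. CAA made up 99.4% of glutamine codons in members, against 68.3% in other genes, and GAA 97.0% of glutamate codons, against 69.8%. An arginine CGA or alanine GCA codon followed directly by AAA or CAA, which are read with modified U34, occurred 0 times in the 20349 codons of members. Such neighbours occurred at 12.9 per 10000 codons in the other genes, of which 42.0% held at least 1. Across the 129 members, Spearman's rho between the number of AAA codons per 100 and the log2 fold change was -0.08 in the double mutant against wild type and 0.21 in the triple mutant against the double mutant. For CAA codons the values were -0.04 and -0.00075. Members share libraries and, in pairs, most of their sequence, so these values are a description.

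Coding sequences of members were short, with a median of 435 nt (78 to 1164 nt) against 1248 nt in the other genes tested, and 65.9% of members had an intron in the coding sequence, against 3.01%. The Rap1 core motif ACCCNNACA was searched on both strands. It was found in the 500 nt before the start codon of 52 of 129 members, which is 40.3%, against 5.46% of 6021 annotated coding sequences. In the window from 250 nt before to 50 nt after the start codon, 12 members held it, 9.30% against 2.82%. Of the 4 pairs printed above, RPL8A and RPL22B had a match, shown here with 10 nt on each side, 5′ to 3′ on the minus strand of R64, with the motif in capitals, to place it beside genes that fell.
RPL8A, chrVIII:36246-36274, upstream of the gene: tgaagaaaacACCCAAACAtatctaggcc
RPL22B, chrVI:65159-65187, upstream of the gene: ccatgtcaacACCCGTACAtattcagaga
These matches lay 231 nt (RPL8A) and 237 nt (RPL22B) before the start codon. RPS14A, RPS14B, RPS9A, RPS9B, RPL8B and RPL22A held no match to these letters in the 500 nt searched, and a match is a description of sequence only.

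Some of the shortest members varied widely between replicates. RPL41A and RPL41B, for the smallest ribosomal protein, had the highest log2 fold changes among members in hel2∆ against wild type, at 1.57 ± 0.61 and 1.07 ± 0.43, and neither was called (edgeR adjusted p = 0.829 and 0.850). RPL41A had 42.0 and 12.9 CPM in triple-mutant libraries, 4.50 and 14.2 in double-mutant libraries, 27.8 and 15.9 in hel2∆ libraries, and 7.98 and 6.60 in wild-type libraries. RPL39 had 4526 and 2641 CPM in triple-mutant libraries, 2145 and 2461 in double-mutant libraries, 4422 and 3848 in hel2∆ libraries, and 2540 and 2935 in wild-type libraries. In hel2∆, replicate 1 exceeded replicate 2 by a median of 0.27 on the log2 scale over the 47 members under 400 nt and by 0.10 over the 82 longer ones. The 82 longer members alone are a subset chosen after the data were seen. Of these 82, 45 were called in the double mutant against wild type, where 27.9% of all genes were called. In the triple mutant, 38 of the 82 were called against hel2∆ (28.8% of all genes) and 2 against the double mutant (6.93% of all genes). The medians over the 82 in these comparisons were -0.31, -0.28 and 0.17.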

How the data were processed

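Stranded libraries were made from poly(A) RNA of the cultures that also served for ribosome profiling. The authors deposited whole-number read counts per gene, not normalised, for 8 libraries. Reads had been mapped to coding sequences without adaptor trimming. The submitters' processing notes name Bowtie and the build sacCer3, and the counting program is not given in the sources used here. No column of values was left unused.

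Genes were filtered by filterByExpr and fitted with edgeR 4.0.16 (quasi-likelihood, TMM, a mean per strain over all 8 libraries, Benjamini-Hochberg over 6087 genes) in R 4.3.3. Each standard error was taken as |log2 fold change| over √F. DESeq2 1.42.0 was an alternative. Paralog pairs were reciprocal best BLAST hits of at least 50% protein identity plus the 55 ribosomal pairs. Their log2 count ratios (offset 0.5) were tested with limma 3.58.1. Both fits were tested on simulated data.

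Genes named were the 5 largest rises and falls per comparison among called members whose libraries did not overlap, with Hel2 substrates, self-regulated genes, ubiquitin fusions and stalk genes, and for pairs the 3 largest changes and the 3 extreme ratios on each side. The shortest genes, RPS14A, RPS9B, RPL8B, RPL15B and the regulators and chaperones named singly were chosen after their values were seen. Members and lists were chosen with earlier results of these data known. Some items are not reported here.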

Additional observations from a re-analysis of the deposited data

How the results depend on the processing

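With scaling by library totals, 31 members were called in the double mutant against wild type (median -0.21) and 25 in the triple mutant against hel2∆ (median -0.16). DESeq2 called 95 in the double mutant against wild type (73.6% against 27.9% of all genes) and 40 in the triple mutant against the double mutant (31.0% against 10.9%). A fit of only the strains compared called 22 in the triple mutant against the double mutant (17.1% against 14.3% of all genes), which turned the order of the shares. It called 27 in the triple mutant against hel2∆ (20.9% against 25.1%), where the excess of called members was lost. Without a variance trend, 0 pairs were called in the triple mutant against the double mutant. The cause of these differences between fits was not tested. Over members with unique sequence alone, the share of counts was 15.9% and 15.7% in double-mutant libraries, against 18.5% and 17.8% in wild-type libraries. That is -2.39 percentage points from wild type, on a smaller base than the -3.61 points over all members, so the 2 differences are not on the same scale.

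Leaving out 1 library at a time gave, in the double mutant against wild type, 10 to 71 members called, medians of -0.39 to -0.31 and 4 to 13 pairs called. It gave 0 to 10 members and 0 to 5 pairs in the triple mutant against the double mutant, and 16 to 45 members, medians of -0.34 to -0.21, 5 to 10 pairs and share differences of -4.27 to -1.69 points in the triple mutant against hel2∆. In hel2∆ against wild type medians were 0.054 to 0.21 and share differences 0.33 to 2.91 points. In the interaction medians were -0.013 to 0.15 and 0 to 1 pairs were called, with the direction turned only without hel2∆ replicate 2. Leaving out a library leaves 1 in its strain, assumed to vary like the others. The shares of all pairs called in these fits are not given here.

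Deviations of same-numbered libraries had correlations of -0.209 to 0.476 over all genes and -0.72 to 0.70 over members, and 3 of the 6 over all genes were below 0. The labels do not say that a number marks a shared batch. With the number as a replicate block, 8 members were called in the triple mutant against the double mutant (6.20% against 10.9% of all genes). There were 66 in the double mutant against wild type (51.2% against 29.9%) and 48 in the triple mutant against hel2∆ (37.2% against 31.0%). In the interaction 1 pair was called. With crossed pairing, chosen after seeing the data, 1 member was called in hel2∆ against wild type (0.775% against 1.30% of all genes). There were 100 in the double mutant against wild type (77.5% against 40.1%). The triple mutant gave 48 against the double mutant (37.2% against 20.8%) and 82 against hel2∆ (63.6% against 42.8%). In the interaction 1 was called (0.775% against 5.29%). Pairs called were 13 and 14 in the triple mutant against the double mutant and hel2∆, and 3 in the interaction. The shares of all pairs called under both pairings are not given here.

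Of 1392 values for single genes and pairs under an alternative, 1283 stayed on the same side of the threshold, 81 lost a call, 28 gained one and 0 turned direction while called. The 1283 include values called in neither fit whose sign changed. An example is RPL40A in hel2∆ against wild type, at 0.13 in the main fit and down to -0.083 under an alternative. The lowest count of a member in any library was 75, for RPL41A.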
